A study of Macaca mulatta with 30 samples.

Results

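The T cell genes of the fetal rhesus macaque lung were taken as CD3D, CD3E, CD3G, CD4, CD8A, LCK, ZAP70, CD28, LTB and IL7R, and a row of the lung count table belonged to the set if its Ensembl identifier carried 1 of these 10 symbols. Of the 10 genes, 7 were matched among the 30246 identifiers of the table, and all 7 had enough reads to be tested among 17644 genes. No row could be matched to CD3D, LCK or CD28 in lung, so these 3 genes have no value there. Lung RNA came from 15 fetuses, 3 in each of 5 groups, after the mothers had received a single intramuscular injection. Controls had received saline. The clinical drug, Celestone, is a mixture of equal parts betamethasone phosphate and betamethasone acetate. It was given at 0.25 mg/kg, and fetuses were delivered 4 h or 5 days later. Beta-Ac is betamethasone acetate alone. It was given at 0.125 mg/kg, with delivery 6 h or 5 days later. All animals were wild type and were labelled as gestational day 124-130, without saying whether this was the age at injection or at delivery. The mean ages at delivery in the paper are later than this range. Each library was 1 fetus, and no animal was in more than 1 group. The dose of betamethasone and the early time differed between the drugs, so that drug, dose and time cannot be told apart between the early groups.

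T cells recognise antigen through the T cell receptor, whose chains reach the cell surface and signal only together with the CD3 chains. On engagement, the kinase LCK, carried to the receptor by the coreceptors CD4 or CD8, phosphorylates the CD3 and zeta chains, and the kinase ZAP70 then binds to them. IL7R is the chain of the interleukin-7 receptor on which resting T cells depend for survival, and lymphotoxin beta (LTB) is a membrane-bound cytokine of the tumor necrosis factor family, made by lymphocytes, that shapes lymphoid tissue. Glucocorticoids act on lymphocytes through the glucocorticoid receptor, and they are known to remove lymphocytes from the circulation, to induce death of immature thymocytes and to induce IL7R in T cells. Several of these genes are also used by other cells. CD4 is carried by macrophages and monocytes of primates, CD8A and ZAP70 by natural killer (NK) cells, LTB by B cells, and IL7R by innate lymphoid cells.

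Libraries held from 14.1 to 45.0 M reads counted on genes. Expression levels are TMM-normalized counts per 1 M reads (CPM), and the normalization factors lay between 0.938 and 1.05, with the lowest 3 at 4 h after the clinical drug. A gene was called when the fold change was at least 1.5, the p under 0.05 and the p adjusted by Storey's method under 0.1 in edgeR's quasi-likelihood test over all 17644 genes. Fold changes are given on the log2 scale with their standard error (SE). The 7 matched markers of the alveolar epithelium, led by the surfactant proteins, summed to 7396 to 18620 CPM in the 15 libraries, as lung should. Of the 8 matched thymic genes, which mark developing T cells and their epithelium, RAG2, FOXN1, PSMB11 and DNTT had 16, 10, 44 and 46 reads over all libraries together. The others, PTCRA, CD1B, CCL25 and AIRE, had 96, 182, 743 and 4408 reads. Whether any sample held thymus was not tested. Animals 4 h after the clinical drug all carried numbers starting with 15, as did 2 of the 3 controls, while those 6 h after Beta-Ac carried 16 or 17 and those at 5 days 16. What this prefix stands for is not stated, and between the early groups it cannot be told apart from the drug. All fetuses of the early clinical-drug group were male, the study's other groups held both sexes, and sex was not a term of the fit.

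**Figure D1:**
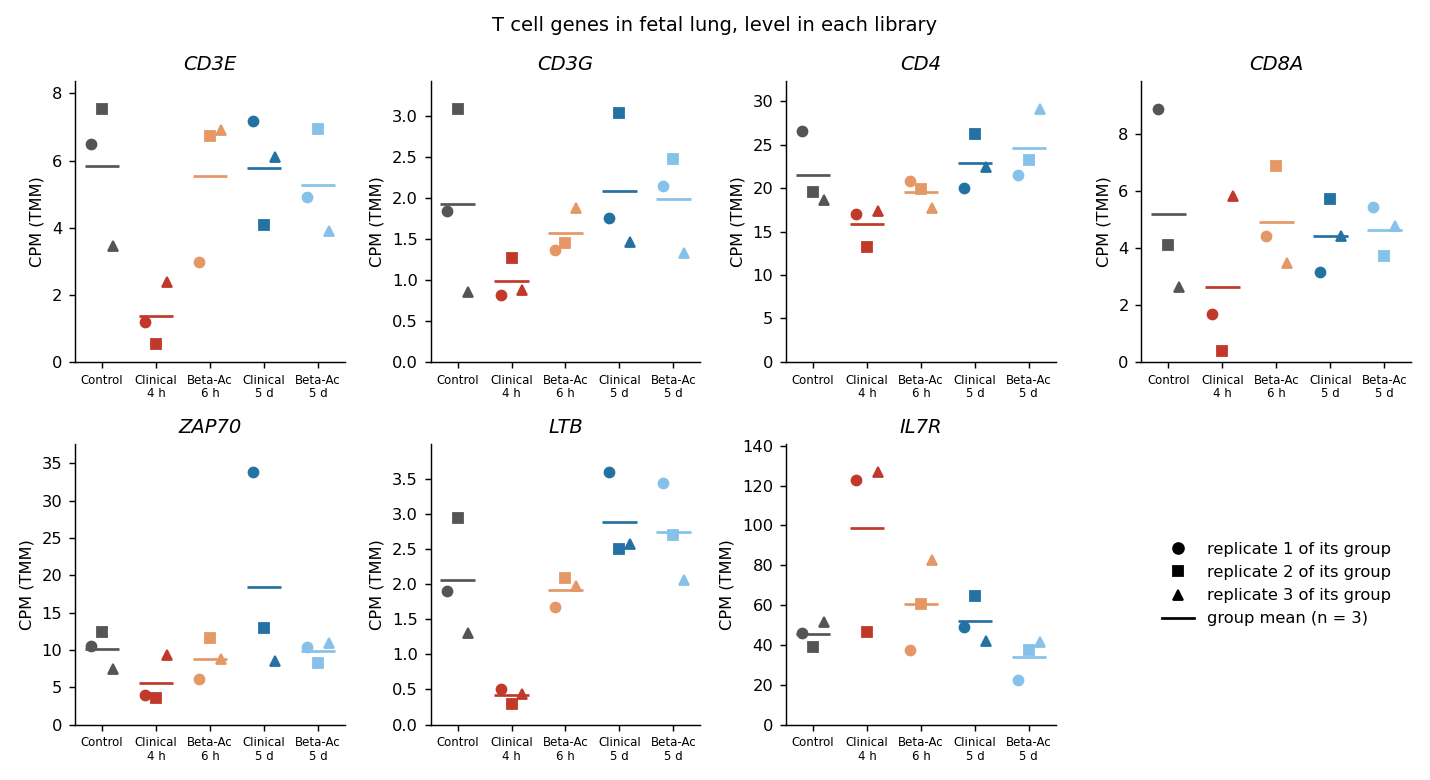
Level of each matched T cell gene in CPM (linear axis from 0) in the 15 lung libraries, with 1 point per library, the symbol showing the replicate number within its group and a line at the group mean. CD3E and LTB were lower in all 3 libraries at 4 h after the clinical drug than in any other library, with at most 2.38 and 0.51 CPM, while IL7R was above 120 CPM in 2 of these 3 libraries.

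At 4 h after the clinical drug, CD3E fell by 2.09 and LTB by 2.23 on the log2 scale, while IL7R rose by 1.12. These were the 3 members called, 2 lower and 1 higher, where 7.4% of all tested genes were called, 3.94% as lower and 3.46% as higher. The other 4 members had values below 0 that did not pass. In 3 of the 7, CD3E, LTB and CD4, all treated libraries were below all controls, an order that 10.2% of all genes showed. The median change of the 7 members was -0.97, against 0.02 for all genes. The members were chosen with earlier results of these data known, so these shares and medians are a description and no independent test.

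CD3E (ENSMMUG00000017593) encodes the epsilon chain, which pairs with the delta and gamma chains. Its level was 6.48, 7.53 and 3.46 CPM in the 3 controls and 1.18, 0.52 and 2.38 CPM in the 3 libraries at 4 h after the clinical drug. The means were 5.83 ± 2.11 and 1.36 ± 0.941 CPM (SD, n = 3). Each of the treated libraries lay below each control, and the lowest of them rested on 7 reads. The change of -2.09 (SE 0.48) was 4.25-fold lower (edgeR, adjusted p = 0.014). It lay between -2.67 and -1.76 over the alternative fits, each library left out in turn among them, and was called in each.

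CD3G (ENSMMUG00000017600), the gamma chain, was less clear. It had 1.84, 3.08 and 0.85 CPM in controls and 0.81, 1.27 and 0.88 CPM at 4 h after the clinical drug. Control replicate 3 was as low as the treated animals, and the groups overlapped. The change of -0.97 (SE 0.45) did not pass (edgeR, adjusted p = 0.182). Without control replicate 3 it was -1.34 and was called.

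LTB (ENSMMUG00000008849) had 1.90, 2.94 and 1.31 CPM in controls and 0.51, 0.30 and 0.44 CPM at 4 h after the clinical drug. All treated libraries were far below all controls. The counts were small, with 22, 4 and 7 reads in the treated and 32, 43 and 26 reads in the control libraries. The change was -2.23 (SE 0.37), or 4.68-fold lower (edgeR, adjusted p = 0.00163). It was called in each of the alternative fits, between -2.47 and -1.88.

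The coreceptors were lower on average but varied. CD4 (ENSMMUG00000013202) had 26.5, 19.5 and 18.6 CPM in controls and 17.1, 13.2 and 17.4 CPM at 4 h after the clinical drug. All treated libraries were below all controls, by a small margin. The change of -0.43 (SE 0.17) did not pass (edgeR, adjusted p = 0.119). CD8A (ENSMMUG00000003524), the alpha chain of CD8, had 8.86, 4.11 and 2.61 CPM in controls and 1.67, 0.37 and 5.82 CPM at 4 h. The third treated library lay within the controls and the second held only 5 reads. The change was -0.99 with an SE of 0.65 (edgeR, adjusted p = 0.315). Without the third treated library it was -2.21 and was called. CD8B, the beta chain, is a neighbour whose span overlaps that of CD8A in the RefSeq annotation of another assembly (T2T-MMU8v2.0). The span of LOC106993043 overlaps that of CD8A as well. Since the strand setting of the counting is not stated, reads of these overlaps cannot be assigned with certainty.

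ZAP70 (ENSMMUG00000021545), the kinase that binds the phosphorylated chains, had 10.5, 12.4 and 7.48 CPM in controls and 4.01, 3.59 and 9.27 CPM at 4 h after the clinical drug. The first and second treated libraries were below the controls and the third was among them, as for CD8A. The change was -0.85 with an SE of 0.47 (edgeR, adjusted p = 0.247), and without the third treated library it was -1.41 and was called.

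IL7R (ENSMMUG00000001676) went the other way. It had 45.7, 39.0 and 51.7 CPM in controls and 123, 46.4 and 127 CPM at 4 h after the clinical drug. Treated replicates 1 and 3 were far above all controls, whereas replicate 2 lay within them. The change was 1.12 (SE 0.35), or 2.17-fold higher (edgeR, adjusted p = 0.0569). This call was not stable. It was lost with only these 2 groups in the fit (adjusted p = 0.108 in edgeR) and when treated replicate 1 or 3 or any 1 control was left out, where the change was 0.92, 0.89, 1.10, 1.02 and 1.22 in that order. Without treated replicate 2, at 14.1 M reads the shallowest library, the change was 1.44 and was called. In the RefSeq annotation of assembly T2T-MMU8v2.0 the span of LOC144341394 overlaps that of IL7R. Reads of that overlap, too, cannot be assigned with certainty, since the strand setting is not stated.

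Among genes called as higher at 4 h, PRKCQ and CD163 differed in where the second treated library lay. PRKCQ had 67.6, 78.7 and 65.1 CPM in the 3 treated libraries and at most 21.8 CPM in controls. CD163, a scavenger receptor of macrophages that glucocorticoids are known to induce, was, like IL7R, lowest of the 3 treated libraries in replicate 2, with 51.8, 10.9 and 39.4 CPM against 13.5, 5.20 and 10.5 CPM in controls. It was called, with a change of 1.81 and an SE of 0.46 (edgeR, adjusted p = 0.0232). The CD163 call was lost with only these 2 groups in the fit. The 9 matched markers of macrophages and monocytes summed to 261, 104 and 209 CPM in the treated libraries. In controls they summed to 192, 145 and 159 CPM. Of the 8 tested, 1 was called as higher and 0 as lower, where 3.46% and 3.94% of all genes were. The part of these markers in the IL7R result was not tested, nor was the reason why treated replicate 2 differed in some genes.

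**Figure D2:**
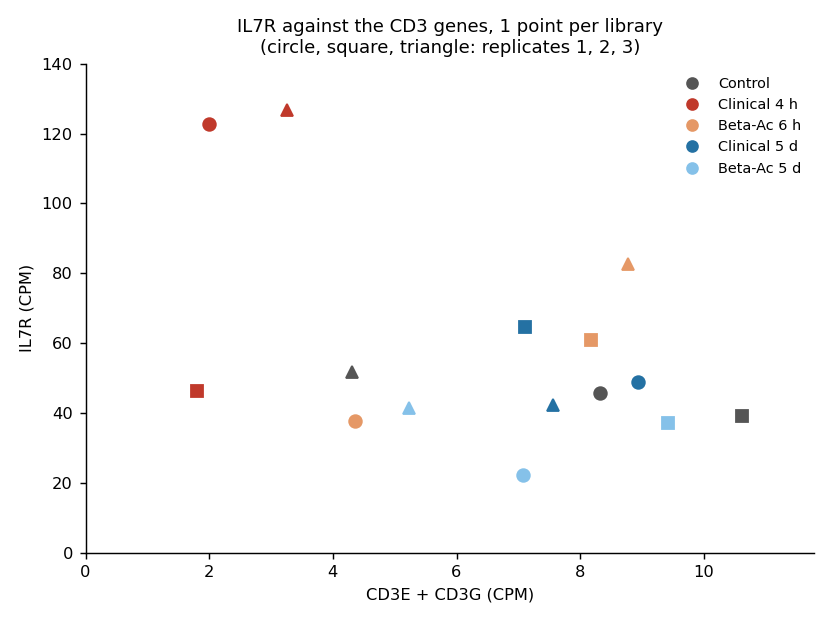
IL7R in CPM against the sum of CD3E and CD3G in CPM, both on linear axes from 0, with 1 point for each of the 15 lung libraries. The 3 libraries at 4 h after the clinical drug lie at the left, with 1.80 to 3.26 CPM of CD3 genes, and 2 of them are highest in IL7R.

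The ratio of IL7R to the CD3 genes restates the levels above and adds no separate evidence. In these 3 libraries it was above that of every other library. IL7R divided by the sum of CD3E and CD3G was 61.7, 25.9 and 39.0 at 4 h after the clinical drug. It was 5.49, 3.68 and 12.0 in controls, from 7.44 to 9.41 at 6 h after Beta-Ac, from 5.47 to 9.07 at 5 days after the clinical drug and from 3.15 to 7.93 at 5 days after Beta-Ac. The treated replicate 2, whose IL7R level was like that of controls, still stood above them in this ratio, with the lowest CD3 sum of all, 1.80 CPM. In whole tissue, fewer T cells and less RNA of these genes per cell cannot be told apart.

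At 6 h after Beta-Ac no T cell gene was called, where 0.442% of all genes were, and 0 of the 7 members had an unadjusted p under 0.05, against 11.5% of all genes. DESeq2 and edgeR's exact test called 0 members as well. CD3E had 2.99, 6.72 and 6.90 CPM and LTB 1.67, 2.09 and 1.98 CPM, both overlapping the controls. The changes against controls were -0.07 (SE 0.45) for CD3E and -0.09 (SE 0.33) for LTB. IL7R had 37.7, 60.8 and 82.6 CPM. Its highest libraries exceeded the controls and its lowest was below them, with a change of 0.41 and an SE of 0.35 (edgeR, adjusted p = 0.518). CD3G, CD4, CD8A and ZAP70 had changes between -0.29 and -0.07.

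Set directly against each other, the early groups differed in both genes. CD3E was 4.06-fold lower at 4 h after the clinical drug than at 6 h after Beta-Ac, a difference of -2.02 (SE 0.48, edgeR, adjusted p = 0.0221). LTB was 4.40-fold lower, a difference of -2.14 (SE 0.36, edgeR, adjusted p = 0.00503). In both genes the groups did not overlap, nor in CD3G (-0.69, SE 0.45) and CD4 (-0.29, SE 0.17), which were not called, so that 4 of 7 members were lower in all libraries at 4 h, where 10.7% of all genes were. CD3E and LTB were the 2 members called, both lower, where 6.74% of all genes were called and 4.11% as lower. The IL7R difference of 0.71 (SE 0.35) did not pass (edgeR, adjusted p = 0.167), and it was called without replicate 2 of the clinical drug, at 1.05. CD8A, with a difference that did not pass, was called without replicate 3 of the clinical drug, at -2.14. Doses and times differed, so these differences cannot be assigned to the drug form. With only these 2 groups in the fit the CD3E difference lost its call (adjusted p = 0.12 in edgeR).

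**Figure D3:**
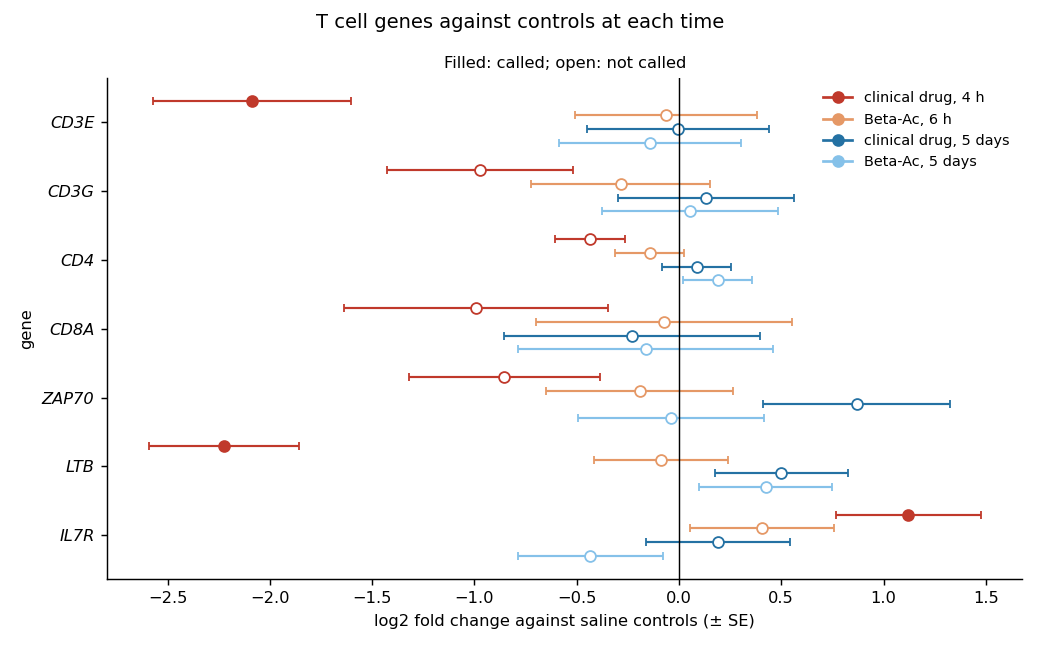
Log2 fold change against saline controls, with its standard error, of the 7 T cell genes for each drug and time (filled points are called, open points are not). Only the 4 h group of the clinical drug has filled points, CD3E and LTB below 0 and IL7R above 0, and the values of the other 3 groups lie between -0.43 and 0.87.

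By 5 days no member was called against controls for either drug, where 0.0% of all genes were called after Celestone and 0.00567% after Beta-Ac. In both comparisons 0 members had an unadjusted p under 0.05, against 4.39% of all genes after the clinical drug and 6.42% after Beta-Ac, and DESeq2 and edgeR's exact test called 0 members. CD3E had 7.19, 4.08 and 6.10 CPM 5 days after the clinical drug and 4.92, 6.94 and 3.91 CPM 5 days after Beta-Ac, spread like the controls. LTB had 3.60, 2.49 and 2.57 CPM and 3.44, 2.70 and 2.06 CPM, overlapping the upper controls, with changes of 0.50 (SE 0.32) and 0.42 (SE 0.32). IL7R had 49.0, 64.5 and 42.2 CPM after the clinical drug and 22.3, 37.3 and 41.5 CPM after Beta-Ac. The libraries of the clinical drug were all above those of Beta-Ac in IL7R, but the difference of 0.62 (SE 0.35) was not called (edgeR, adjusted p = 0.999), where 6.25% of all genes showed the same order without overlap. Of the 7 members, 0 were called between the drugs at 5 days, where 0.0% of all genes were, and 0 had an unadjusted p under 0.05, against 3.15% of all genes.

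Compared with 5 days after the same drug, more members stood out at 4 h. Between these times of the clinical drug, 4 members were lower and 1 higher at 4 h, where 10.4% of all genes were called, 5.92% as lower and 4.47% as higher. LTB was 6.61-fold lower (-2.72, SE 0.36, edgeR, adjusted p = 0.000268) and CD3E 4.23-fold lower (-2.08, SE 0.48, edgeR, adjusted p = 0.00983). CD3G was lower by -1.10 with an SE of 0.45 (edgeR, adjusted p = 0.0913), and its libraries at 5 days, with 1.75, 3.03 and 1.46 CPM, were all above those at 4 h. CD4, with 20.0, 26.2 and 22.4 CPM at 5 days, was also without overlap, as were 13.5% of all genes in this direction, but its difference of -0.52 was under the fold threshold. It passed without replicate 1 (-0.59) or 3 (-0.60) at 4 h or replicate 1 (-0.61) at 5 days. ZAP70 was lower by -1.72 with an SE of 0.47 (edgeR, adjusted p = 0.0219). Its level at 5 days was 33.9, 12.9 and 8.56 CPM, the first being the highest ZAP70 level of all 15 libraries, and without that library the difference was -0.94 and was no longer called (edgeR, adjusted p = 0.142). IL7R was higher at 4 h by 0.93 with an SE of 0.35 (edgeR, adjusted p = 0.0756). That call and the call of CD3G were lost under Benjamini-Hochberg adjustment and with no filter. The CD3G call was also lost in DESeq2, in edgeR's exact test, without replicate 1 (-0.98), 2 (-1.33) or 3 (-1.06) at 4 h, and without replicate 1 (-1.21) or 2 (-0.72) at 5 days. The IL7R call was lost without replicate 1 (0.72) or 3 (0.70) at 4 h and without replicate 1 (0.89), 2 (1.12) or 3 (0.78) at 5 days. CD8A, not called between these times, passed without replicate 3 at 4 h, at -1.99.

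After Beta-Ac, 0 members were called between 6 h and 5 days, where 0.261% of all genes were, and DESeq2 and edgeR's exact test called 0 as well. IL7R was the 1 member with an unadjusted p under 0.05, against 7.91% of all genes, with a difference of 0.84 (SE 0.35, edgeR, adjusted p = 0.502). CD4 was lower in all libraries at 6 h than at 5 days, by -0.33 (SE 0.17), in an order that 5.97% of all genes showed.

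Genes that work beside the members were read from 5 lists with 82 genes, of which 66 were matched and 65 tested. The lists were chosen with earlier results of these data known. Their counts beside the shares of all genes are thus a description and no independent test. At 4 h after the clinical drug 21 of the 65 were lower and 4 higher, where 3.94% and 3.46% of all tested genes were, and their median change was -0.56, against 0.02 for all genes. With only these 2 groups in the fit, 11 of the 65 were called, and without control replicate 2 also 11. At 6 h after Beta-Ac 2 were higher, where 0.368% of all genes were, and 0 lower, with a median of -0.07. At 5 days 0 were called for either drug. In the direct early comparison 19 were lower and 1 higher at 4 h after the clinical drug, where 4.11% of all genes were lower and 2.62% higher, or 6 in all with only these 2 groups in the fit.

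**Figure D4:**
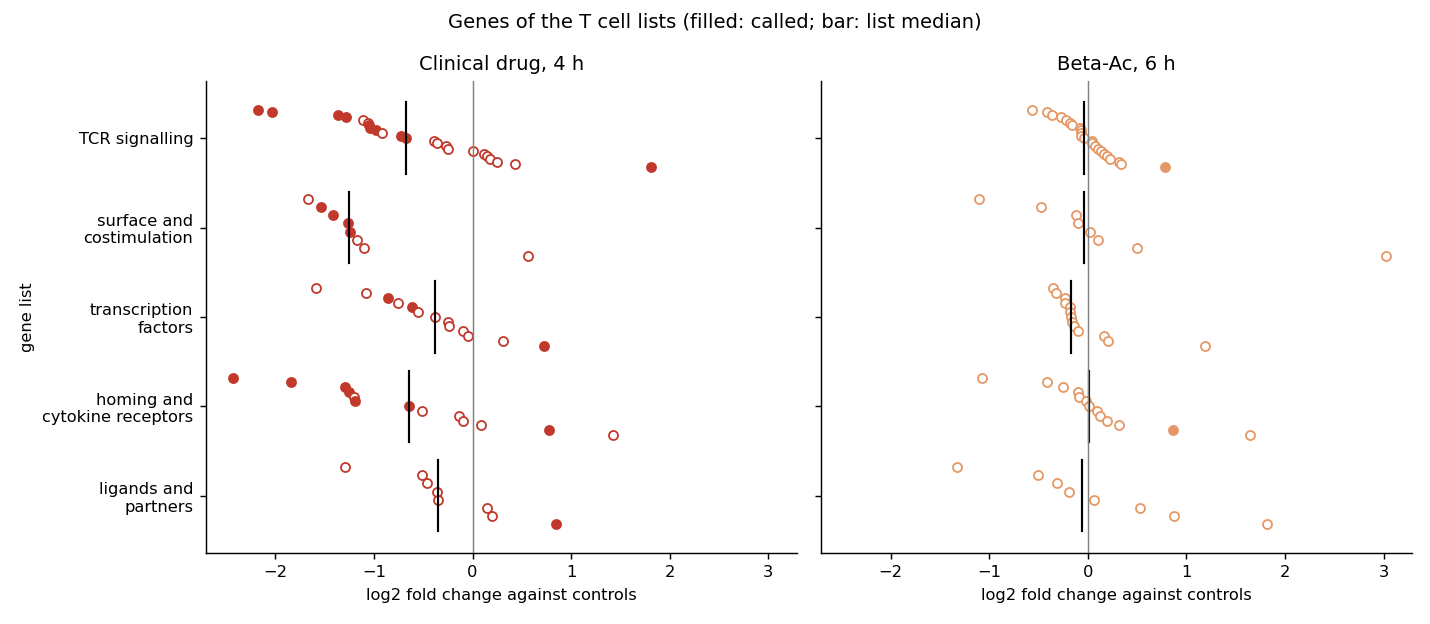
Log2 fold change against controls of the tested genes of the 5 T cell lists, 4 h after the clinical drug (left) and 6 h after Beta-Ac (right), with 1 point per gene, filled where called, and a bar at each list's median. On the left the medians lie between -1.25 and -0.35 and 21 filled points are below 0, while on the right the filled points are PRKCQ and KLF2, both above 0.

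Of 23 tested genes of T cell receptor signalling, 9 were lower and 1 was higher at 4 h after the clinical drug. THEMIS, needed in T cell development, fell by 2.18 (SE 0.63, edgeR, adjusted p = 0.0398), with no read in treated replicate 2. CD247, the zeta chain that carries signals for the receptor, had 0.63, 0.82 and 0.69 CPM against 2.20, 2.19 and 1.10 CPM in controls. It fell by 1.37 (SE 0.38, edgeR, adjusted p = 0.0352). In THEMIS and CD247 the groups did not overlap, as was so for 10.2% of all genes in this direction. THEMIS lost its call without control replicate 2 (-1.53) and CD247 without control replicate 1 (-1.23) or 2 (-1.22). PRKCQ, the kinase that links the receptor to nuclear factor kappa B, was the gene of this list that rose. Its change was 1.81 (SE 0.16, edgeR, adjusted p = 3.03e-05) at 4 h and 0.78 (SE 0.16, edgeR, adjusted p = 0.0587) at 6 h after Beta-Ac. The later call was lost without any 1 control, at 0.83, 0.74 and 0.76, and without Beta-Ac replicate 3, at 0.64. PRKCQ is also expressed outside T cells, and its levels in controls were 18.8 to 21.8 CPM. In which cells it rose was not tested. FYN, another kinase of the receptor used in many tissues, had a change of 0.43, under the fold threshold.

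Of 8 tested surface and costimulatory genes, 4 were lower and 0 higher at 4 h after the clinical drug, and their median was -1.25. SLAMF1 had a change of -1.54, CD96 of -1.41, the adaptor SH2D1A of -1.26 and CD5, an inhibitor of receptor signals, of -1.24, with adjusted p between 0.0364 and 0.0959 in edgeR. All were under 3 CPM in each library. In SLAMF1, CD96 and SH2D1A all treated libraries were below all controls, an order that 10.2% of all genes showed. As these genes were named because they were called, this order adds no separate evidence. None of these 4 calls held with each library left out. SLAMF1 lost its call without treated replicate 1 (-1.60) or 2 (-1.37) or control replicate 2 (-1.50) or 3 (-1.44), and CD96 without control replicate 1 (-1.09). SH2D1A lost it without treated replicate 1 (-0.95) or control replicate 1 (-1.09) or 2 (-1.19), and CD5 without any treated replicate (-1.41, -1.39 and -1.01 in order) or control replicate 1 (-1.15) or 2 (-0.96). CD8B had a change of -1.67 with an SE of 0.87 and did not pass (edgeR, adjusted p = 0.229), with 0.05, 0 and 0.75 CPM at 4 h against 1.01, 0.48 and 0.80 CPM in controls. As with CD8A, the third treated library was within the controls and the others below, and without it CD8B was called.

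Of 13 tested transcription factors, 2 were lower and 1 higher at 4 h. ETS1, abundant in lymphocytes and in endothelium, fell by 0.86 (SE 0.16, edgeR, adjusted p = 0.00311), with 66.9, 44.0 and 66.5 CPM against 86.1, 114 and 123 CPM in controls. TCF7, a factor of early and resting T cells, fell by 0.62 (SE 0.19, edgeR, adjusted p = 0.0508). Its call was lost without treated replicate 2 (-0.58) or 3 (-0.62) or control replicate 1 (-0.52) or 2 (-0.61). ZBTB7B, the factor of the CD4 lineage, rose by 0.73 (SE 0.13, edgeR, adjusted p = 0.00299), with 73.8, 69.0 and 68.8 CPM against 47.0, 39.4 and 41.3 CPM in controls. Whether ZBTB7B rose in T cells or in other cells of the lung was not tested. FOXP3, the factor of regulatory T cells, had a change of -0.25 (SE 0.30).

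The homing and cytokine receptor list held the gene with the most negative change of all 5 lists. Of its 13 tested genes 6 were lower and 1 was higher. CCR7, the receptor that guides T cells into lymph nodes, had 1.18, 0.52 and 1.57 CPM at 4 h after the clinical drug against 6.66, 7.05 and 4.37 CPM in controls. It fell by 2.43 (SE 0.40, edgeR, adjusted p = 0.00156). IL21R fell by 1.84 (SE 0.52), JAK3, the kinase of the common gamma chain, by 1.29 (SE 0.28), and IL2RB by 1.26 (SE 0.37), with adjusted p between 0.00889 and 0.0451 in edgeR. IL21R lost its call without treated replicate 1 (-1.35) or 2 (-1.65), and IL2RB without treated replicate 2 (-0.93) or control replicate 1 (-1.15) or 2 (-1.23). IL2RG, the common gamma chain with which IL7R forms the receptor, fell by 0.64 (SE 0.14, edgeR, adjusted p = 0.0119). Without control replicate 2 the change was -0.56, under the fold threshold. IL2RG had 8.50, 8.52 and 10.4 CPM against 15.1, 15.8 and 11.9 CPM in controls, so that the partner chain and its kinase were lower in libraries in which IL7R was higher or like the controls. KLF2, a factor that keeps T cells quiescent and is also made by endothelium, rose by 0.78 (SE 0.12, edgeR, adjusted p = 0.00115) at 4 h after the clinical drug and by 0.86 (SE 0.13, edgeR, adjusted p = 0.0119) at 6 h after Beta-Ac.

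Of 8 tested ligands and partners, 0 were lower and 1 was higher at 4 h. IL16, a ligand of CD4, rose by 0.85 (SE 0.31, edgeR, adjusted p = 0.0924), a call that was lost when any 1 of the 6 libraries was left out, at 0.77 to 0.92. IL7, the ligand of IL7R, had under 0.5 CPM in each library. LTBR, the receptor for lymphotoxin on stromal cells, had 163, 169 and 170 CPM at 4 h and 149, 153 and 136 CPM in controls, a change of 0.20 that was not called.

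Markers of other blood cells moved with some of the T cell genes. Over 6 tested genes common to leukocytes, 3 were called as lower at 4 h after the clinical drug and 0 as higher. Of all genes, 3.94% were called as lower and 3.46% as higher. PTPRC, the leukocyte antigen CD45, had 15.5, 3.81 and 18.0 CPM against 33.2, 34.3 and 24.4 CPM in controls, a change of -1.28 (SE 0.36, edgeR, adjusted p = 0.0342). The PTPRC call was lost with only the groups compared in the fit. The summed level of the list was 54.6 to 119 CPM at 4 h, below its range of 127 to 167 CPM in controls. CD3E divided by PTPRC was 0.076, 0.137 and 0.132 at 4 h and 0.195, 0.22 and 0.142 in controls, so that relative to PTPRC, too, each treated library was below each control, replicates 2 and 3 by little. In all other libraries this ratio lay between 0.133 and 0.254.

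Of 6 tested B cell markers, 2 were called as lower, FCRL1 (-1.43) among them, and 0 as higher. For all genes these shares were 3.94% and 3.46%. FCRL1 lost its call without treated replicate 1 (-1.09). The 8 matched B cell genes summed to 4.82, 4.79 and 8.33 CPM at 4 h after the clinical drug and to 16.2, 12.6 and 9.54 CPM in controls. PAX5 and VPREB1, which define the lineage and its early stages, had 23 and 18 reads over all 15 libraries. Of 7 tested NK cell markers NCR3 was lower and 0 were higher. The NCR3 call was lost without treated replicate 1 (-1.24) or 3 (-1.37) or control replicate 1 (-1.28). The NK sums of 19.8, 12.0 and 28.8 CPM at 4 h overlapped those of controls, 23.9, 26.7 and 18.5 CPM. Of 8 tested dendritic cell markers IRF8 was lower and FLT3 was higher, the latter losing its call without treated replicate 1 (0.70) or control replicate 2 (1.35) or 3 (1.36), with sums of 29.4 to 45.9 CPM against 43.9 to 60.0 CPM.

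The lists for innate lymphoid cells, thymus, lymphoid stroma and erythroid cells gave 0 calls against controls at 4 h after the clinical drug. Of 4 tested markers of innate lymphoid cells, IL1RL1 had the highest change, 1.64 (SE 0.64), which did not pass (edgeR, adjusted p = 0.119), and NCR2 had no read in any library. The sum of that list, from 122 to 152 CPM at 4 h and from 155 to 200 CPM in controls, was made up mostly of ID2, which many cells express. For the thymus, 4 of 10 genes were tested, and the summed level, led by AIRE, was 18.0 to 22.4 CPM at 4 h and 9.44 to 17.1 CPM in controls. For lymphoid stroma, with 3 tested, the sums were 1.05 to 2.83 CPM and 3.21 to 3.77 CPM. The 5 tested erythroid genes summed to 216 to 269 CPM at 4 h and to 47.1 to 414 CPM in controls. Of 7 tested alveolar epithelial markers 3 were called as higher and 0 as lower, where 3.46% and 3.94% of all genes were. Their sums were 12520 to 18620 CPM at 4 h against 7396 to 10800 CPM in controls. Whether any of these cell groups had a part in the T cell results was not tested.

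**Figure D5:**
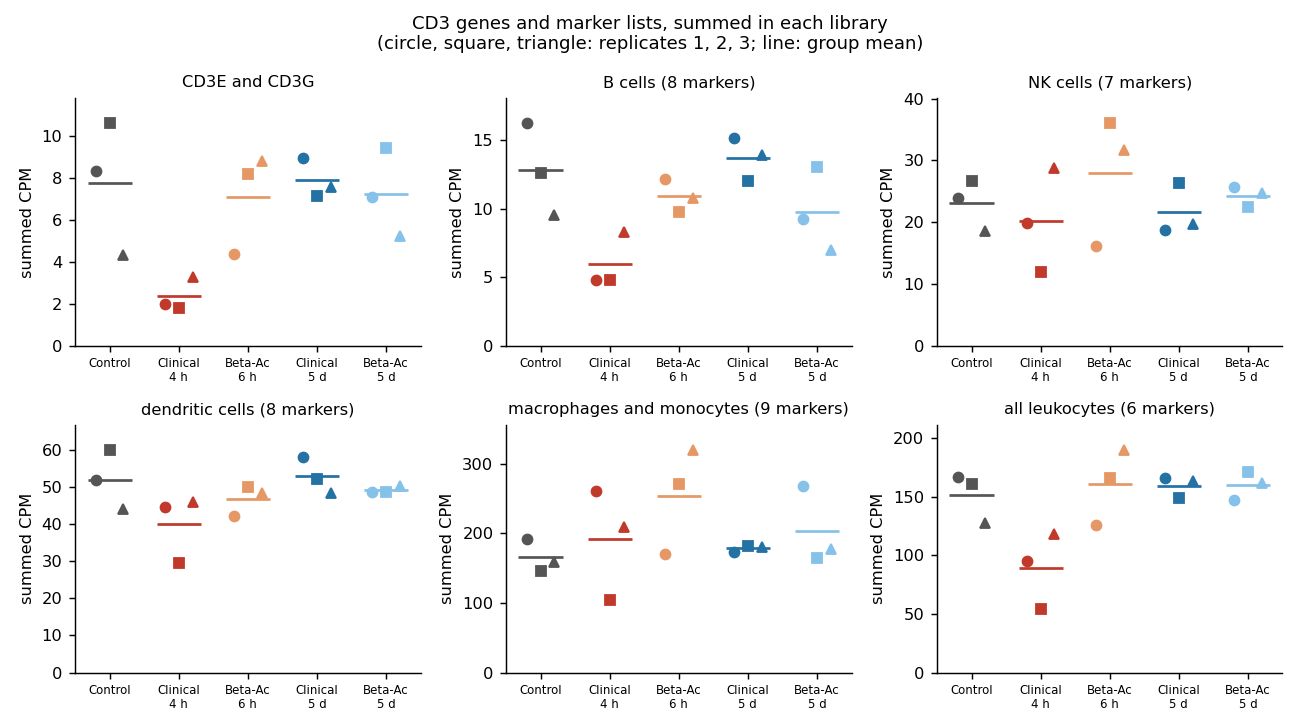
Summed CPM (linear axes from 0) of CD3E and CD3G and of 5 marker lists in each lung library, with a line at the group mean. At 4 h after the clinical drug the CD3 genes, the B cell markers and the leukocyte markers lie below all controls, whereas the NK and macrophage sums overlap them.

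The genes whose levels followed the CD3 genes most closely were sought among all tested genes with a symbol, by Pearson's r of log2 CPM over the 15 libraries with the mean of CD3E and CD3G. Among the 6 highest were TAPBPL (0.969), MATK (0.936), CCR7 (0.917), FMNL1 (0.912) and ACAP1 (0.911). The libraries share groups, and the 3 at 4 h after the clinical drug were the lowest in TAPBPL, at 0.83 to 1.25 CPM against 1.61 CPM or more elsewhere. For IL7R the 6 highest were MTHFD2 (0.919), AP2B1 (0.871), FOXO1 (0.870), PHACTR4 (0.869), RAB6B (0.869) and FNBP1L (0.867), none of which was on the CD3 list. FOXO1 encodes a transcription factor known to drive IL7R in T cells, and it was called as higher at 4 h after the clinical drug, by 1.23 (SE 0.29, edgeR, adjusted p = 0.016). So were AP2B1 (0.725), RAB6B (0.786) and FNBP1L (0.613), but not MTHFD2 or PHACTR4. Of all genes 3.46% were called as higher, but these 6 were picked by their likeness to IL7R over the same libraries. Their calls, that of FOXO1 included, follow in part from this pick and add no separate evidence. At 6 h after Beta-Ac FOXO1 had a change of 0.75 (SE 0.29) that was not called. Whether any of these genes had a part in the IL7R result was not tested. The r values describe likeness over 15 libraries and carry no test. Among the members, r with CD3E was 0.891 for LTB, 0.769 for CD8A, 0.739 for ZAP70, 0.607 for CD4, 0.581 for CD3G and -0.327 for IL7R.

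Hippocampus, sequenced in 15 libraries and normalized apart from lung, gave a level for 8 of the 10 genes. CD3G had no read in 12 of the 15 libraries and at most 2 reads in the others. CD3E had 0.44 to 2.41 CPM with a median of 0.972, CD8A a median of 0.159, LTB of 0.27 and LCK of 0.281 CPM. IL7R had a median of 2.75 CPM there, CD4 of 4.24 CPM and ZAP70 of 3.15 CPM. The lung libraries at 4 h after the clinical drug, with CD3E at 0.52 to 2.38 CPM, fell within the hippocampal range, as they did for LTB. Other members did not. CD3G, at 0.81 to 1.27 CPM in these lung libraries, was above its hippocampal maximum of 0.0824 CPM. CD4 (13.2 to 17.4 against at most 9.03 CPM) and IL7R (46.4 to 127 against at most 5.01 CPM) were above it too, and CD8A and ZAP70 overlapped it. The tissues were not normalized together and no test was made between them. Hippocampal drug groups were not compared, since the labels of these libraries disagree on the treatment.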

How the data were processed

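The members of the gene set and the gene and marker lists were chosen with earlier results of these data known. The authors sequenced 75 bp paired-end reads, aligned them to the rhesus genome build MMUL1.0 and counted them per Ensembl gene with featureCounts, and the deposited values are these raw counts. The aligner is given as Bowtie 2 in the methods and as Bowtie 1.2.1.1 in the submitters' processing notes for lung, with featureCounts 1.5.1. The strand setting is not given in the sources used here.

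Symbols came from a table of Ensembl identifiers, in which 52.1% of the 30246 lung identifiers had one. All 15 lung libraries entered a single edgeR 4.0.16 fit in R 4.3.3, with TMM normalization and the quasi-likelihood F-test on the 17644 genes that reached 7 reads in 3 or more libraries. The thresholds were 1.5 for the fold change, 0.05 for p and 0.1 for Storey's adjusted p. Standard errors are the fold change divided by the square root of F. The fits were tested on simulated counts. Replicates are separate fetuses, and between 14.1 and 45.0 M reads were counted per library. Ratios and sums use CPM. Log2 CPM for correlations used a prior count of 2.

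Named were all members, up to 4 genes of each T cell list with the largest called change at 4 h after the clinical drug, those called in another comparison with controls, and the 6 genes most like the CD3 genes and most like IL7R. CD8B, FYN, IL2RG, FOXP3, IL7, LTBR and the named markers were chosen after their values were seen. Alternatives were RLE normalization, filterByExpr, no filter, edgeR's exact test, DESeq2 1.42.0, Benjamini-Hochberg adjustment, no fold threshold, only the 2 groups compared, and each library left out. Some genes that this rule names are not reported here. Sequences were not used here, and the coordinates of a RefSeq annotation of another assembly served only to name overlapping neighbours.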

Additional observations from a re-analysis of the deposited data

Results flagged for a closer look

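Among the T cell genes, effects that differed between drugs or times by a test of the difference itself all involved the libraries at 4 h after the clinical drug. Between the early groups, CD3E differed by -2.02 and LTB by -2.14 on the log2 scale, 4 h after the clinical drug against 6 h after Beta-Ac, with all 3 libraries of the clinical drug below all 3 of Beta-Ac. The dose and time differ along with the drug in this comparison.

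Between 4 h and 5 days after the clinical drug, LTB differed by -2.72, CD3E by -2.08, ZAP70 by -1.72, CD3G by -1.10 and IL7R by 0.93. The LTB, CD3E and CD3G libraries did not overlap between these times, whereas those of ZAP70 and IL7R did. The ZAP70 difference was -0.94 and not called without the 5-day library that had 33.9 CPM. Groups of 3 are too small for a test of single outlying libraries.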

How the results depend on the processing

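At 4 h after the clinical drug the calls of CD3E and LTB against controls held in all 14 alternatives, with 2 to 4 members called when a library was left out. Against Beta-Ac at 6 h, 1 member in place of 2 was called with only the 2 groups compared, and 2 to 3 with a library left out. Between 4 h and 5 days after the clinical drug, 3 in place of 5 were called with no filter and with Benjamini-Hochberg adjustment, and 3 to 5 with a library left out. The 5 other comparisons kept 0 members called in each alternative.

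Of the 65 T cell list genes, 11 in place of 25 were called at 4 h against controls with only the 2 groups compared, and 11 to 23 with a library left out. At 6 h after Beta-Ac it was 1 in place of 2 with only the 2 groups, and 1 to 2 with a library left out. In the early comparison of the drugs it was 13 without a filter and 6 with only the 2 groups, in place of 20. Between 4 h and 5 days it was 15 to 28 with a library left out, in place of 28. Of 26 called changes printed for list and marker genes, 9 were called in each alternative fit. Benjamini-Hochberg adjustment was not read gene by gene for these, so calls lost under it are missing here. The fit of only the 2 groups lost the 4 h calls of THEMIS, CD247, SLAMF1, CD96, SH2D1A, CD5, IL21R and IL2RB. It also lost those of PTPRC, FCRL1, NCR3, FLT3 and CD163, and that of PRKCQ at 6 h after Beta-Ac. SLAMF1, CD5, IL16 and NCR3 lost their 4 h calls with no filter, and CD5 also in DESeq2 and edgeR's exact test. A fit of only the 2 groups holds fewer samples, and otherwise the cause of these changes was not tested.

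Small changes that were not called could change sign with a library left out. At 6 h after Beta-Ac these changes against controls ran from -0.34 to 0.23 for CD3E, from -0.65 to 0.22 for CD3G, from -0.24 to 0.018 for CD4, from -0.41 to 0.55 for CD8A, from -0.46 to 0.013 for ZAP70 and from -0.34 to 0.26 for LTB. FOXP3 at 4 h ran from -0.47 to 0.22. RLE normalization moved no mean level by as much as 1 SD. Low counts limit LTB, CD8A and CD3E most, with 4, 5 and 7 reads in their lowest libraries. No paired analysis was possible because each animal was in 1 group and the labels give no number or litter that ties animals across groups, the replicate numbers used here being names only.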
